A study of Mus musculus with 6 samples.

Results

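The 10 genes described here belong to the integrated stress response that the transcription factor ATF4 runs. They were taken by symbol from the deposited table of 54532 genes, and they are Atf4 itself, Ddit3, Trib3, Ppp1r15a, Sesn2, Asns, Psat1, Phgdh, Shmt2 and Chac1. The symbols matched 11 rows, because Ddit3 is listed a second time (ENSMUSG00000116429, a row of 105 bases inside the first one) at 0 in every library, and the longer row was used. RNA was sequenced from bone marrow-derived macrophages (BMDMs) that had shared a culture with ID8, a line of ovarian cancer cells from the mouse. For 3 libraries the tumour cells had first received 40 µM cisplatin, a platinum drug that damages DNA, and for 3 they had received phosphate-buffered saline (PBS). These groups are called cisplatin and PBS here. The drug was given to the tumour cells and not to the macrophages, all libraries came from co-cultures, and no macrophages grown alone were analysed here. The marrow cells came from C57BL/6 mice per the study's methods, and how they were parted from the ID8 cells before lysis is not given in the sources used here.

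In the integrated stress response, kinases that sense amino acid shortage, unfolded protein, double-stranded RNA or heme shortage phosphorylate the initiation factor eIF2. Most translation then slows, while the Atf4 messenger is translated more, and ATF4 protein switches on genes for amino acid supply, protein folding and, under lasting stress, cell death. ATF4 is therefore regulated to a large part at translation, which RNA sequencing does not measure. Macrophages use the same genes when nutrients run short and when inflammatory signals change their metabolism.

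ATF4 pairs with C/EBP proteins on a composite element. Its core letters, TGATGNAA, were searched on both strands of the RefSeq promoter windows (GRCm38.p6, 250 bases before and 50 after each start). All 10 genes had a window, Psat1 with 2. The letters were found for Asns, Chac1 and Trib3, which is 3 of 10, against 4.51% of 27025 genes with a window and 3.97% of all 32851 windows. These genes were chosen as known ATF4 targets, so the share is a description, and a match is not a shown binding site. The 30 bases around each match are printed 5′ to 3′ on the gene's strand, with the matching letters in capitals, so that the element can be set beside the values of the same genes below. Further listed ATF4 targets, Slc7a11, Atf3 and Nupr1, are shown with them because they moved in different directions.
Asns, chr6:7693214-7693243, minus strand: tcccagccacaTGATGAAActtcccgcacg
Chac1, chr2:119351038-119351067, plus strand: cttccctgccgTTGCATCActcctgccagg
Trib3, chr2:152344028-152344057, minus strand: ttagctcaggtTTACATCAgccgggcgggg
Slc7a11, chr3:50443661-50443690, minus strand: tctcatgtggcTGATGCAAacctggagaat
Slc7a11, chr3:50443642-50443671, minus strand: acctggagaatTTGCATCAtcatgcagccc
Atf3, chr1:191183425-191183454, minus strand: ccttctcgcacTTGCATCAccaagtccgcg
Nupr1, chr7:126625562-126625591, minus strand: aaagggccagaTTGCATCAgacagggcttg
The capitals of Asns and of the first Slc7a11 stretch read in the gene's direction, and the others are the reverse complement, TTNCATCA. The Trib3 match lies just after the RefSeq start but upstream of the start the deposited table gives for Trib3 (152344032).

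Values are FPKM, fragments per kilobase of gene per 1000000 reads, so that levels can be compared between genes. The reads behind them, recovered from the values, summed to 15776238 to 17924686 per library, of which the 10 genes held 12622 to 17921. Libraries of one group correlated with r of 0.984 to 0.989 across the tested genes and libraries of different groups with r of 0.871 to 0.877, on log2(FPKM + 1). The study's methods speak of biological replicates, but neither they nor the labels say whether the 3 libraries of a group came from separate cultures or animals, and p-values measure the spread between these libraries. Differences were tested by limma over 13441 genes. Genes are said to have risen or fallen where the adjusted p was under 0.05, and to have been called where the log2 fold change was also at least 1 in size, the threshold of the study's methods. Log2 fold changes are cisplatin against PBS on log2(FPKM + 1) unless another setting is named, which understates the change of low genes. Changes of single genes given as x-fold are ratios of mean FPKM. Those of ratios between genes come from mean log2 ratios, without an added 1.

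RNA of cell type markers differed between the groups, and these values stand beside every result below. All 10 macrophage markers listed rose (median log2 fold change 1.002), and their summed level was 1757 to 1780 FPKM with PBS and 4449 to 4617 with cisplatin. Of 13 ID8 and mesothelial markers 10 could be tested, 9 fell and 1 rose (Cdh1), and their sum was 1311 to 1414 FPKM with PBS and 247 to 268 with cisplatin. Krt19, a keratin of ID8 cells, was at 588 ± 28.8 FPKM with PBS and still at 51.1 ± 3.80 with cisplatin (SD, n = 3 a group), while Krt7, Igfbp5 and Epcam were under 1 FPKM in every library. Neutrophil and granule markers rose in 9 of 10 cases, with sums of 4657 to 4805 and 8367 to 8643 FPKM, and lymphocyte markers in 5 of 6, with sums of 115 to 123 and 270 to 276 FPKM. The 4 Y-linked genes, transcribed only in male cells, all rose, and summed to 19.5 to 22.7 FPKM with PBS and 41.6 to 42.8 with cisplatin. With libraries scaled by these 4 genes, 4 macrophage markers were higher and 3 lower at the adjusted p, with a median of 0.030. Lymphocyte markers were then 1 higher and 3 lower (median -0.17), and neutrophil and granule markers 6 higher and 2 lower (0.69). ID8 and mesothelial markers were still lower in 9 cases, with a median of -3.10. Of 12 tested mitochondrially encoded genes 7 rose and 1 fell, and with scaling by Y-linked genes 0 were higher and 9 lower. In such mixed RNA, fewer cells of a type and less RNA per cell cannot be told apart, and the part of these shifts in the changes of the stress response genes was not tested.

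The 10 genes did not move as a block. Atf4, Shmt2, Phgdh, Chac1, Ppp1r15a and Ddit3 rose, Trib3 and Psat1 fell, and Sesn2 and Asns did not pass the test. None of the 10 was called by limma (8 had an unadjusted p under 0.05, and limma voom on the recovered reads called 1, Atf4), whereas 15.9% of all tested genes were (4.67% higher and 11.3% lower). A change at the adjusted p alone was common in these libraries, at 68% of all tested genes (32.9% higher and 35.1% lower), so 8 of 10 is close to the background. The same 32.9% and 35.1% are the background for the counts of every list below. The groups did not overlap for the same 8 genes, and for 72.4% of all tested genes (35.2% higher and 37.2% lower). The median log2 fold change of the 10 genes was 0.23, against -0.0011 over all tested genes, and the values ran from -0.82 to 0.92. All 10 genes passed the filter on low values with more than 4 FPKM in every library. When libraries were scaled by the Y-linked genes, the median over all tested genes was -0.83 and that over the 10 genes -0.70, with 0 of them higher and 8 lower at the adjusted p, so the directions given below are those relative to the deposited scaling.

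**Figure D1:**
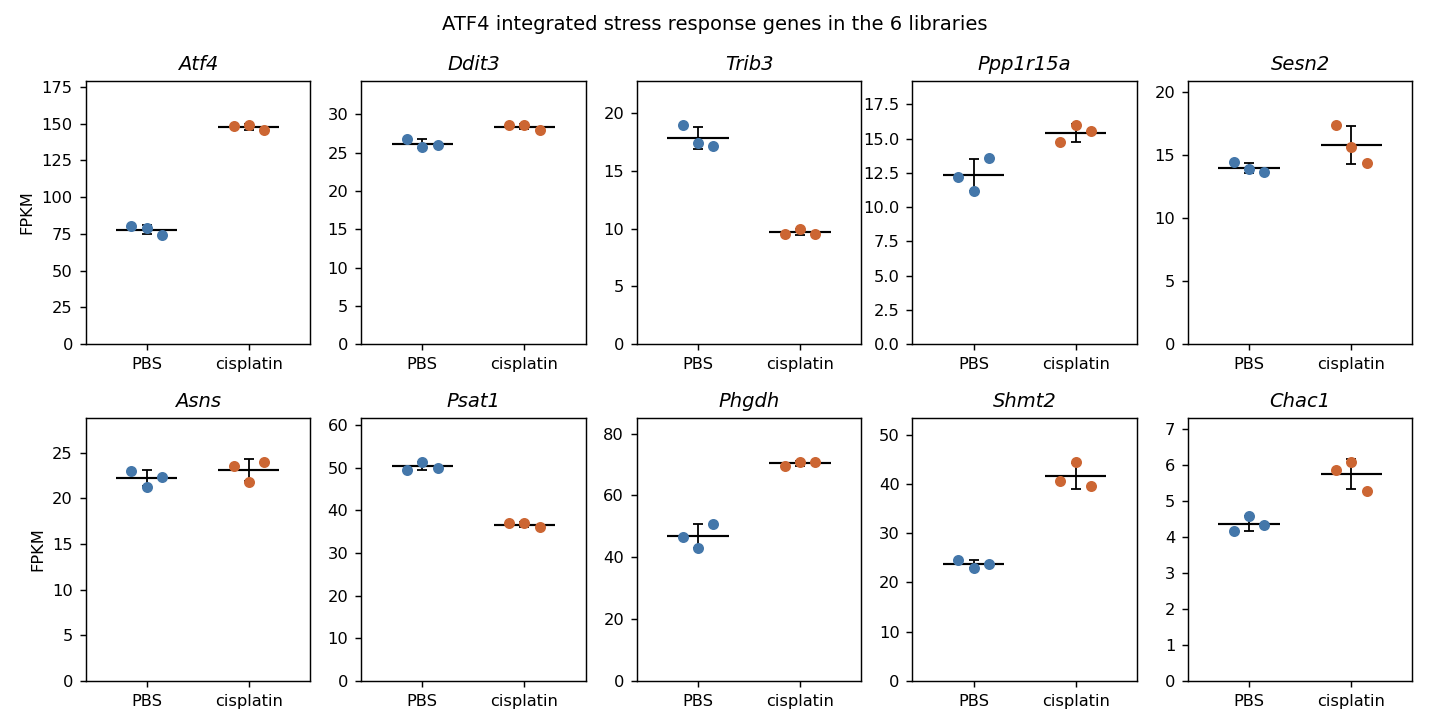
FPKM of the 10 genes (vertical axes from 0) in the 3 PBS and 3 cisplatin libraries. Points are libraries, long bars are means and error bars are SD. Atf4, Phgdh and Shmt2 lie higher with cisplatin in all 3 libraries, Trib3 and Psat1 lie lower, and the groups overlap for Sesn2 and Asns. These directions hold on the deposited scaling, and with scaling by Y-linked genes the rises are no longer seen.

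The transcription factors came first. Atf4 (ENSMUSG00000042406, chromosome 15, 80255184 to 80257541, plus strand) was at 80.3, 78.8 and 74.5 FPKM in the PBS libraries and at 148, 149 and 145 FPKM in the cisplatin libraries. The groups lay far apart, with no library between 80.3 and 145 FPKM. The mean rose 1.90-fold, from 77.9 ± 3.04 to 148 ± 1.99 FPKM (SD, n = 3 a group, log2 fold change 0.92 with SE 0.038, adjusted p = 1.52e-06), and 94% of all tested genes had a log2 fold change no higher than this. Atf4 was the most abundant of the 10 messengers in every library. Its change crossed the threshold of 1 in 2 other settings, at 1.001 with the total of recovered reads as denominator and 1.01 with limma voom, and was -0.074 with scaling by Y-linked genes (adjusted p = 0.204).

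Ddit3 encodes CHOP, the factor that ATF4 induces and that drives death genes under lasting stress. Ddit3 (ENSMUSG00000025408, chromosome 10, 127290774 to 127296288, plus strand) was at 26.8, 25.7 and 26.1 FPKM with PBS and at 28.6, 28.6 and 28.0 FPKM with cisplatin. The groups did not overlap, but only 1.18 FPKM parted the nearest libraries. The log2 fold change of 0.11 (with SE 0.035, 95% interval 0.030 to 0.196, adjusted p = 0.0238) stayed between 0.10 and 0.13 when each library was left out, but did not pass the test without cisplatin replicate 1 (adjusted p = 0.0527), cisplatin replicate 2 (0.0739), PBS replicate 2 (0.0614) or PBS replicate 3 (0.067), with the replicate number as a block (0.0723) or without the eBayes trend (0.0526). Ddit3 shares coordinates with Mars on the other strand, which held up to 1703 reads, and with Gm4189, and whether the counting used strand is not given in the sources used here. Its change was 0.20 with the total of recovered reads and with limma voom, and -0.85 with scaling by Y-linked genes.

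The genes that feed back on the response went in different directions. Trib3, which encodes a pseudokinase that binds ATF4 and CHOP and restrains them, was at 19.0, 17.4 and 17.2 FPKM with PBS and at 9.57, 9.97 and 9.55 FPKM with cisplatin. Every cisplatin library lay below every PBS library. Trib3 (ENSMUSG00000032715, chromosome 2, 152337422 to 152344032, minus strand) fell from 17.9 ± 0.98 to 9.70 ± 0.24 FPKM (SD, n = 3 a group, log2 fold change -0.82 with SE 0.051, adjusted p = 1.07e-05). Trib3 was the largest fall among the 10, and the fall was seen in each of 17 alternative settings (log2 fold change from -1.74 to -0.74). This is the gene whose TTACATCA letters are printed above.

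Ppp1r15a encodes GADD34, the phosphatase subunit that removes the phosphate from eIF2 and so ends the response. It was at 12.2, 11.2 and 13.6 FPKM with PBS and at 14.7, 16.01 and 15.5 FPKM with cisplatin, with all cisplatin libraries higher. Ppp1r15a (ENSMUSG00000040435, chromosome 7, 45522916 to 45526268, minus strand) rose with a log2 fold change of 0.30 (with SE 0.072, adjusted p = 0.00784), and was at -0.63 with scaling by Y-linked genes. Sesn2 encodes sestrin 2, a leucine sensor that holds back the growth kinase mTORC1. Sesn2 (ENSMUSG00000028893, chromosome 4, 132492032 to 132510501, minus strand) was at 14.4, 13.9 and 13.7 FPKM with PBS and at 17.4, 15.6 and 14.4 FPKM with cisplatin. The lowest cisplatin library lay within the PBS range. The log2 fold change was 0.16 (95% interval -0.0034 to 0.33, adjusted p = 0.0754), so neither no change nor a rise of that size can be set aside. It was 0.094 without cisplatin replicate 1 (adjusted p = 0.171). It passed the test as a rise without cisplatin replicate 3 (0.22, adjusted p = 0.0238), with quantile normalisation (0.22, adjusted p = 0.0256), with the total of recovered reads (0.24, adjusted p = 0.0175) and with limma voom (0.26, adjusted p = 0.00361). With scaling by Y-linked genes it was -0.77.

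The amino acid synthesis genes also went in different directions. Phgdh and Psat1 encode the first and second enzymes of serine synthesis from glycolysis, and Shmt2 the mitochondrial enzyme that splits serine into glycine and a one-carbon unit. Phgdh (ENSMUSG00000053398, chromosome 3, 98313170 to 98339990, minus strand) was at 46.7, 43.1 and 50.8 FPKM with PBS and at 69.6, 71.0 and 71.0 FPKM with cisplatin. It rose 1.505-fold, from 46.8 ± 3.85 to 70.5 ± 0.80 FPKM (SD, n = 3 a group, log2 fold change 0.58 with SE 0.059, adjusted p = 0.000124). Shmt2 (ENSMUSG00000025403, chromosome 10, 127517123 to 127522444, minus strand) was at 24.6, 22.8 and 23.7 FPKM with PBS and at 40.6, 44.5 and 39.5 FPKM with cisplatin. It rose 1.75-fold, from 23.7 ± 0.87 to 41.5 ± 2.63 FPKM (SD, n = 3 a group, log2 fold change 0.78 with SE 0.055, adjusted p = 1.84e-05). For both genes all cisplatin libraries were higher, and with scaling by Y-linked genes their values were -0.40 and -0.18.

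Psat1 went the other way. Psat1 (ENSMUSG00000024640, chromosome 19, 15904678 to 15947337, minus strand) was at 49.5, 51.4 and 49.99 FPKM with PBS and at 37.1, 36.9 and 36.0 FPKM with cisplatin. The spread within each group was small beside the distance between them. Psat1 fell from 50.3 ± 0.98 to 36.7 ± 0.595 FPKM (SD, n = 3 a group, log2 fold change -0.45 with SE 0.033, adjusted p = 2.52e-05), and did so in all 17 alternative settings. Asns encodes asparagine synthetase, a classical ATF4 target. Asns (ENSMUSG00000029752, chromosome 6, 7675169 to 7693254, minus strand) was at 23.0, 21.2 and 22.3 FPKM with PBS and at 23.5, 21.8 and 24.02 FPKM with cisplatin, and the groups overlapped. Its log2 fold change of 0.056 (with SE 0.051, adjusted p = 0.368) had a 95% interval of -0.067 to 0.18, which leaves out a change of the size of Atf4. It was -0.90 with scaling by Y-linked genes and 0.14 with limma voom (adjusted p = 0.0458).

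Chac1, a target of ATF4 and CHOP, encodes an enzyme that breaks down glutathione. It was the lowest of the 10 messengers in every library, at 4.18, 4.59 and 4.33 FPKM with PBS and at 5.85, 6.10 and 5.29 FPKM with cisplatin. The groups did not overlap, and 110 to 164 reads lay behind each value. Chac1 (ENSMUSG00000027313, chromosome 2, 119351229 to 119354381, plus strand) rose with a log2 fold change of 0.33 (with SE 0.067, adjusted p = 0.00383), and was at -0.50 with scaling by Y-linked genes.

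**Figure D2:**
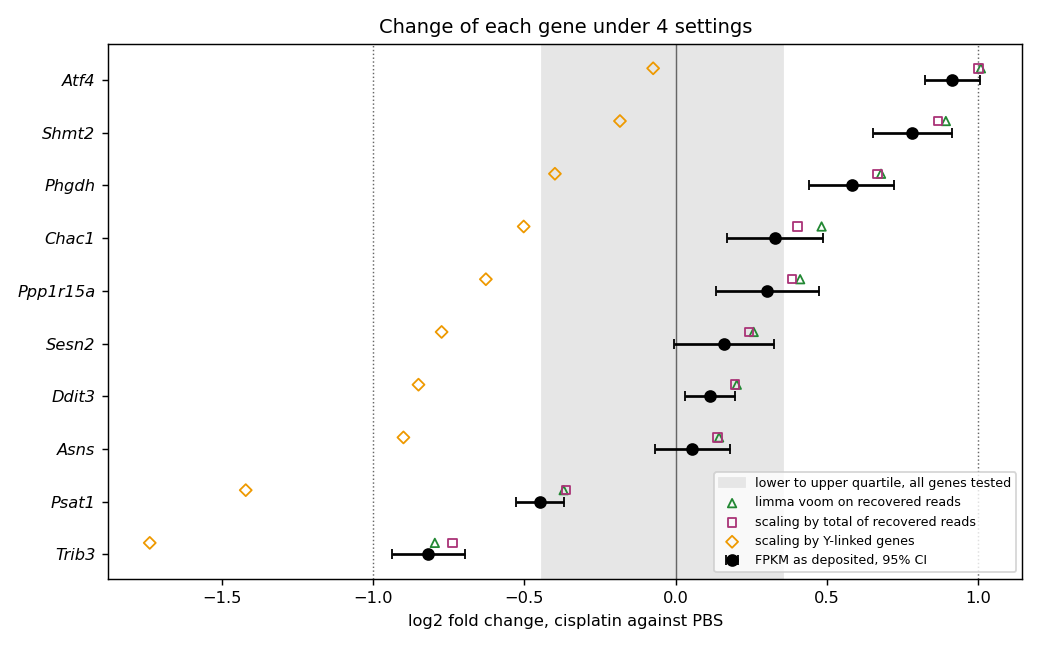
Log2 fold change, cisplatin against PBS (horizontal axis), of the 10 genes. Black points are the values from FPKM as deposited with their 95% intervals, open marks are 3 other settings, the grey band runs from the lower quartile (-0.44) to the upper quartile (0.35) of all tested genes, and dotted lines mark a change of 1. Atf4, Shmt2 and Phgdh lie above the band and Trib3 below it, while Psat1 (-0.45, 95% interval -0.53 to -0.37) lies at its lower edge. Scaling by Y-linked genes (diamonds) shifts all 10 to values below 0.

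The order of the levels changed with these shifts. With PBS, Atf4 was followed by Psat1 and Phgdh, whose library ranges overlapped, then by Ddit3, by Shmt2 and Asns, which also overlapped, by Trib3, Sesn2 and Ppp1r15a, and by Chac1. With cisplatin, Atf4 was followed by Phgdh, Shmt2 and Psat1, and these did not overlap. Ddit3 and Asns came next, Sesn2 and Ppp1r15a overlapped, and Trib3 lay below them.

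Ratios within a library do not change when all its values are multiplied by 1 factor. The ratio of Trib3 to Atf4 was 0.236, 0.221 and 0.231 in the PBS libraries and 0.0645, 0.0668 and 0.0657 in the cisplatin libraries. It was thus 3.49-fold lower with cisplatin. The ratio of Psat1 to Atf4 was 2.60-fold lower, that of Asns to Atf4 1.82-fold, of Ddit3 1.75-fold, of Sesn2 1.68-fold, of Ppp1r15a 1.51-fold, of Chac1 1.44-fold and of Phgdh 1.26-fold. The groups did not overlap for any of these 8 ratios. For Shmt2 they did, with 0.306, 0.290 and 0.318 against 0.274, 0.298 and 0.272 (1.08-fold lower), so that Shmt2 kept closest to Atf4. All 9 ratios share the Atf4 values and are not independent of each other. The ratio of Psat1 to Phgdh fell from 1.08 ± 0.11 to 0.520 ± 0.013 (SD, n = 3 a group), a 2.07-fold difference, and the groups did not overlap. The exact permutation test (two-sided) gave p = 0.1 for these ratios, the smallest that 3 libraries against 3 allow, and p = 0.2 for Shmt2 to Atf4 (Benjamini-Hochberg adjusted over 12 ratios, 0.109 and 0.2).

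**Figure D3:**
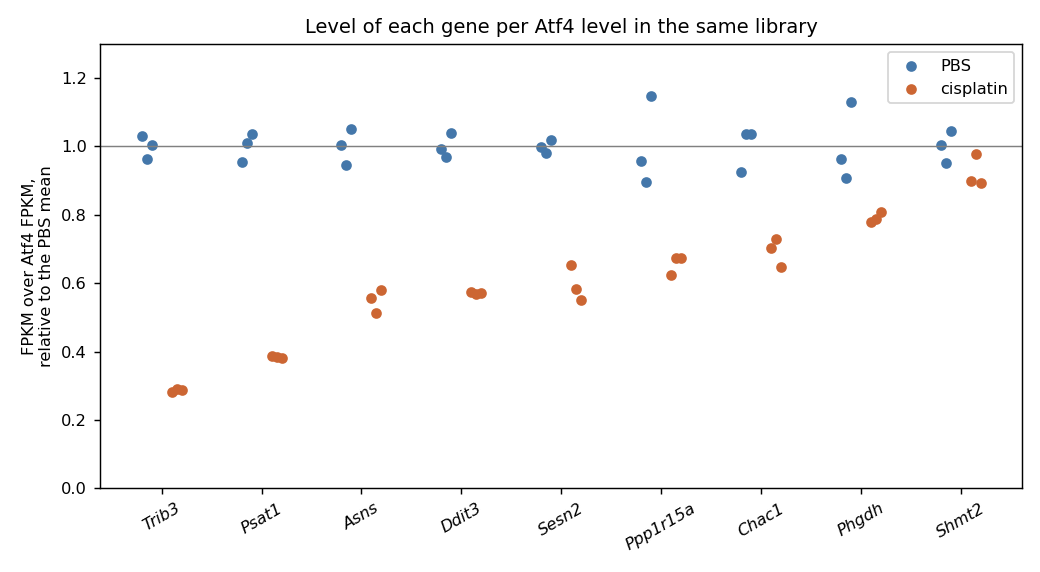
FPKM of each gene divided by the FPKM of Atf4 in the same library, relative to the mean of the PBS libraries (vertical axis from 0). Points are libraries, 3 with PBS and 3 with cisplatin. Relative to Atf4, Trib3 was 3.49-fold and Psat1 2.60-fold lower with cisplatin, and only the Shmt2 points of the groups overlap.

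The eIF2 kinases and the initiation machinery stand upstream. Of 17 tested genes 8 rose (47.1%) and 3 fell (17.6%), 1 was called in each direction, and the median change was 0.14 on the log2 scale. Eif2ak2, the double-stranded RNA sensor PKR and an interferon-induced gene, fell from 49.0 ± 2.25 to 19.1 ± 0.68 FPKM (SD, n = 3 a group, log2 fold change -1.31, adjusted p = 8.03e-07). Eif2ak3 (PERK, which senses unfolded protein) rose with 0.24 (adjusted p = 0.0141), Eif2ak4 (GCN2, which senses uncharged tRNA) fell with -0.28 (adjusted p = 0.00536, and -0.17 with quantile normalisation), and Eif2ak1 (HRI, the heme-regulated kinase) was at 0.11 (adjusted p = 0.0596), passing the test as a rise in 5 other settings. Impact, an inhibitor of GCN2 activation, was called higher, from 13.2 ± 0.79 to 32.2 ± 0.66 FPKM (SD, n = 3 a group, log2 fold change 1.22, adjusted p = 1.42e-06). Among the subunits of the exchange factor eIF2B, Eif2b1 rose (0.64) and Eif2b5 fell (-0.27). Oma1, a mitochondrial protease that signals to the response, rose (0.49). The rises of Eif2ak3, Eif2b1 and Oma1 turned negative with scaling by Y-linked genes, and that of Impact did not.

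Slc7a11 and Slc3a2 were the called genes among the amino acid transporters under ATF4. Of 8 tested, 6 rose (75%, against 32.9% of all tested genes) and 2 fell (25%, against 35.1%). Of these 2 were called higher, and the middle value was 0.85 on the log2 scale. Slc7a11, which encodes the cystine importer xCT and whose matching stretches are printed above, rose from 29.3 ± 1.71 to 125 ± 4.30 FPKM (SD, n = 3 a group, log2 fold change 2.06 with SE 0.050, adjusted p = 1.67e-07). Slc7a11 is also a target of the oxidative stress factor NRF2. Its partner chain Slc3a2 rose from 58.3 ± 1.59 to 152 ± 7.07 FPKM (SD, n = 3 a group, log2 fold change 1.37, adjusted p = 4.95e-07). The neutral amino acid carrier Slc38a2 rose with 0.95, was also called with quantile normalisation (1.01), the total of recovered reads (1.03) and limma voom (1.05), and turned to -0.032 with scaling by Y-linked genes (adjusted p = 0.566). Slc1a4 (-0.67) and the glycine carrier Slc6a9 (-0.58) fell. Slc7a3 and Slc43a1 were too low to be tested.

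Serine, one-carbon, proline and transamination enzymes were split. Of 14 tested, 5 rose (35.7%) and 7 fell (50%), 1 was called higher and 0 lower, with a median of -0.17. With a pseudocount of 0.1, TPM rescaling and limma voom 2 were called higher, Shmt1 being added, and 1 lower, Aldh1l2 (-1.23, -1.06 and -1.25). Mthfd2, which carries the mitochondrial one-carbon unit onward from Shmt2, rose from 13.3 ± 0.63 to 29.4 ± 1.22 FPKM (SD, n = 3 a group, log2 fold change 1.08, adjusted p = 2.59e-06), and the cytosolic enzymes Shmt1 (0.95) and Mthfd1 (0.53) rose with it. The next mitochondrial enzymes fell, Mthfd1l from 30.4 ± 0.59 to 17.8 ± 0.54 FPKM (SD, n = 3 a group, log2 fold change -0.74) and Aldh1l2 with -0.71. Got1, a transaminase, fell with -0.90 (adjusted p = 2.01e-06). Psph, the last step of serine synthesis, was at 5.14 ± 0.39 and 5.01 ± 0.12 FPKM (SD, n = 3 a group, log2 fold change -0.030, adjusted p = 0.695), and its sign depended on the scaling. Pycr1, Cth, Cbs and Gldc were too low to be tested. Under scaling by Y-linked genes Mthfd1 turned to -0.39, and Mthfd2 (0.13, adjusted p = 0.137) and Shmt1 (0.070, adjusted p = 0.52) no longer passed the test.

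**Figure D4:**
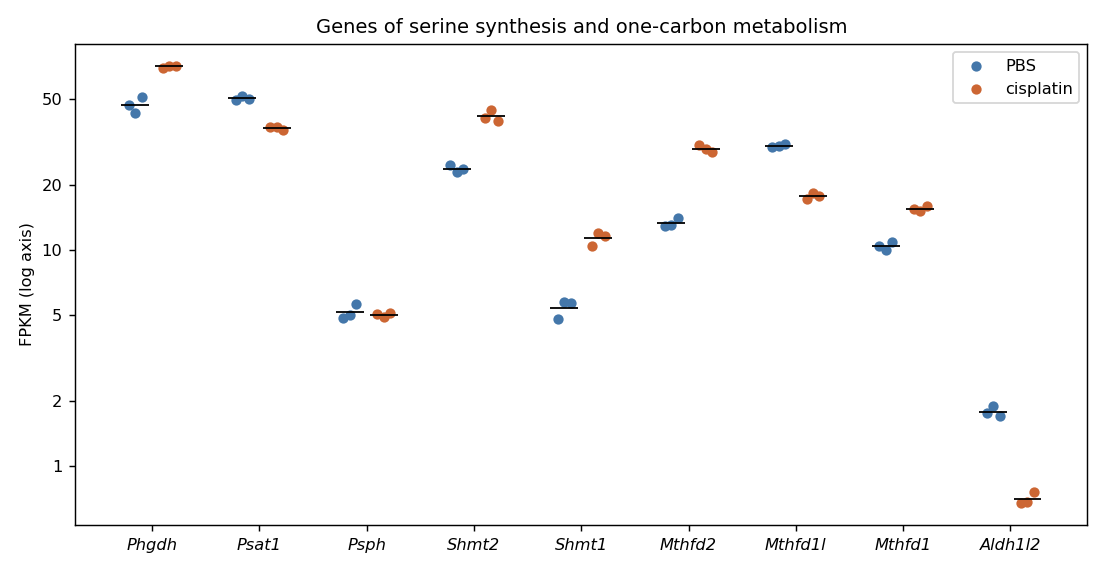
FPKM (log axis) of genes of serine synthesis (Phgdh, Psat1, Psph) and of one-carbon metabolism (Shmt2 to Aldh1l2) in the 3 PBS and 3 cisplatin libraries. Points are libraries and bars are means. On the deposited scaling Phgdh, Shmt2, Shmt1, Mthfd2 and Mthfd1 rose while Psat1, Mthfd1l and Aldh1l2 fell, and Psph did not pass the test.

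Other effectors of ATF4 and CHOP were counted next. Of 15 tested, 4 rose (26.7%, against 32.9% of all tested genes) and 8 fell (53.3%, against 35.1%), with 1 called higher and 3 lower, and the median was -0.13. With a pseudocount of 0.1, TPM rescaling and limma voom 4 were called lower, Vldlr (-0.88) being added (-1.40, -1.24 and -1.40). Ero1l, which encodes an oxidase of the endoplasmic reticulum, fell from 247 ± 8.91 to 36.9 ± 1.87 FPKM (SD, n = 3 a group, log2 fold change -2.71, adjusted p = 6.7e-08). Ddit4, which encodes the mTORC1 inhibitor REDD1, fell from 103 ± 11.7 to 22.1 ± 3.02 FPKM (SD, n = 3 a group, log2 fold change -2.17, adjusted p = 5.62e-06). Both are also induced by hypoxia. Nupr1, a stress-induced chromatin protein, fell with -1.40 (adjusted p = 4.98e-06). Atf5, the closest relative of Atf4, rose from 10.997 ± 0.061 to 36.96 ± 0.28 FPKM (SD, n = 3 a group, log2 fold change 1.66, adjusted p = 9.06e-08), also with every other scaling. Atf3 (0.24), Jdp2 (0.49) and Gdf15 (0.25) rose, but turned negative with scaling by Y-linked genes. Of the partners of ATF4, Cebpg fell (-0.25, adjusted p = 0.00334) and Cebpb was at -0.054 (adjusted p = 0.552). Fgf21 was too low to be tested.

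On the deposited scaling the letters printed above did not go with a single direction. The lists of initiation genes, transporters, serine and one-carbon enzymes, effectors and relatives gave 9 further genes that held TGATGNAA and could be tested. Of these, 4 rose (Slc7a11, Jdp2, Atf3 and Eif2s3x) and 5 fell (Nupr1, Got1, Vldlr, Slc1a4 and Pck2). Among those that rose, only Slc7a11 was still higher with scaling by Y-linked genes. Eif2s3x did not pass the test when any 1 of 4 libraries was left out. In the endoplasmic reticulum list below, 1 gene also held the letters and is not counted here. Of all 259 tested genes with a match, 39.0% rose and 38.2% fell, against 34.4% and 37.8% of the 9340 tested genes that had a window.

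Relatives of the 10 genes were read beside them. Of 8 listed, 3 rose (37.5%) and 2 fell (25%). Chac2, the relative of Chac1, fell from 16.6 ± 0.56 to 5.53 ± 0.79 FPKM (SD, n = 3 a group, log2 fold change -1.44, adjusted p = 9.34e-06) and had thus been above Chac1 with PBS. Trib2 fell (-0.55, adjusted p = 5.97e-05) and Trib1 was at 0.13 (adjusted p = 0.0784). Ppp1r15b, the constitutive counterpart of Ppp1r15a, rose with 0.40 (adjusted p = 8.16e-05). Sesn1 (-0.083, adjusted p = 0.206) and Sesn3 (0.13, adjusted p = 0.128) did not pass the test. Shmt1 and Atf5 are given above. Trib1 and Sesn3 passed the test as rises with quantile normalisation (0.22 and 0.29), with the total of recovered reads (0.21 and 0.20) and with limma voom (0.23 and 0.27). The values of Ppp1r15b, Trib1 and Sesn3 were negative with scaling by Y-linked genes, and that of Sesn1 was 0.023 with quantile normalisation.

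The chaperones of the endoplasmic reticulum and the IRE1 and ATF6 arms, which answer unfolded protein beside PERK and ATF4, moved in both directions. Of 25 genes 13 rose (52%) and 9 fell (36%), 1 was called, and the median was 0.12. With scaling by Y-linked genes 0 were higher and 24 lower at the adjusted p, 10 of them called, with a median of -0.85. Hspa5 (BiP, the main chaperone of the compartment) fell from 345 ± 7.47 to 293 ± 4.37 FPKM (SD, n = 3 a group, log2 fold change -0.23, adjusted p = 0.000535), and Xbp1, the factor spliced by IRE1, fell with -0.19 (adjusted p = 0.00259). With the total of recovered reads Hspa5 was at -0.15 and Xbp1 at -0.10 (adjusted p = 0.0308), with close values under limma voom. The sensors Atf6 (-0.71) and Ern1 (-0.46) and the low Derl3 (-0.69) fell. Herpud1, which helps to discard unfolded proteins, rose from 34.2 ± 1.25 to 69.8 ± 3.48 FPKM (SD, n = 3 a group, log2 fold change 1.01, adjusted p = 3.13e-06), and was under the threshold of 1 without PBS replicate 3 (0.98), cisplatin replicate 1 (0.98) or cisplatin replicate 3 (0.997). Dnajb9 (0.44) and Atf6b (0.40) rose. With scaling by Y-linked genes both turned negative and Herpud1 no longer passed the test (0.031, adjusted p = 0.601).

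Glutathione genes, listed because Chac1 acts on their product, rose in 7 of 11 cases (63.6%) and fell in 2 (18.2%). There were 3 called higher and 1 lower, and the median was 0.39. Gclm and Gclc, the subunits of the enzyme that commits to glutathione synthesis, rose with 1.45 (adjusted p = 4.19e-07) and 1.06 (adjusted p = 1.08e-06). Both are known NRF2 targets, and Gclc no longer passed the test with scaling by Y-linked genes (0.091, adjusted p = 0.128). Oplah, which recycles the 5-oxoproline that Chac1 releases, fell from 6.93 ± 0.12 to 1.68 ± 0.26 FPKM (SD, n = 3 a group, log2 fold change -1.57, adjusted p = 4.54e-06), and Gpx4 fell with -0.54.

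**Figure D5:**
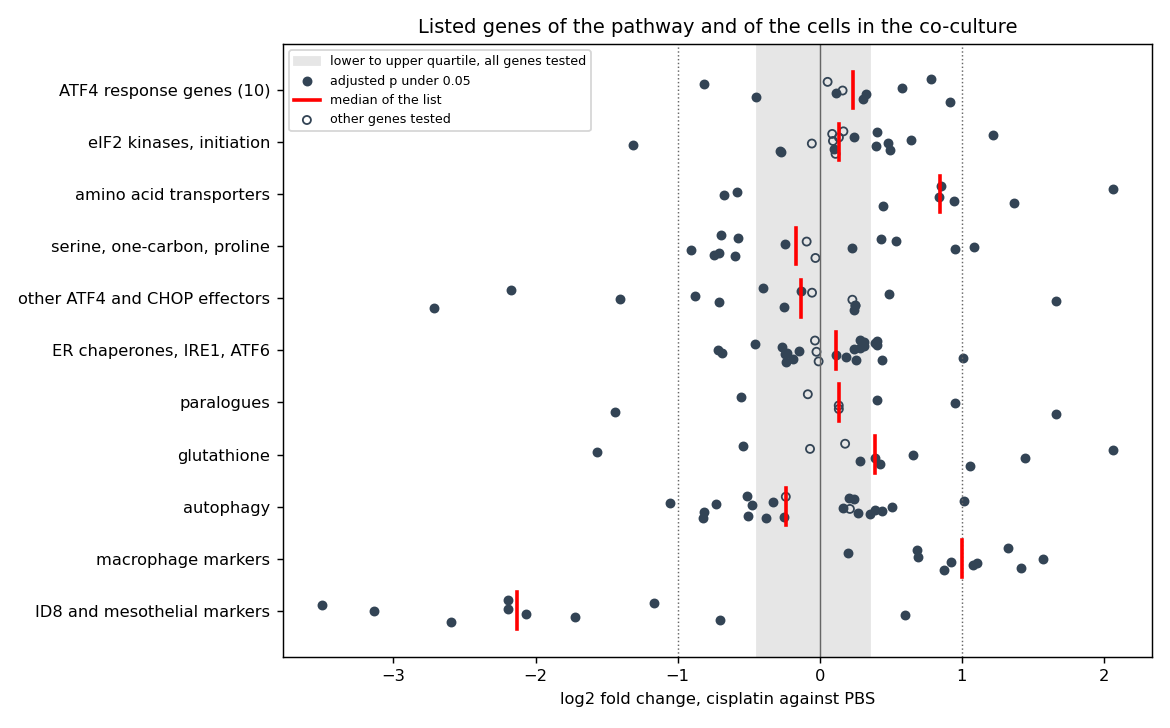
Log2 fold change, cisplatin against PBS (horizontal axis), of every tested gene of each list. Filled points passed an adjusted p under 0.05, red bars are list medians, and the grey band is the lower to upper quartile of all tested genes. The medians run from -0.17 to 0.39 for the pathway lists other than the amino acid transporters (0.85) and autophagy (-0.24), beside 1.002 for macrophage markers and -2.13 for ID8 and mesothelial markers, all on the deposited scaling.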

How the data were processed

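The deposited table gives FPKM per gene and library, made by the authors. The submitters' processing notes name fastp, HISAT2 2.0.5, featureCounts 1.5.0-p3 and the build mm10, whereas the study's methods name LifeScope for alignment and counting. Of the table's identifiers 54409 were in GENCODE M21 (GRCm38), 98.3% with equal coordinates and strand, the 10 genes among them. FPKM times gene length gave whole reads (within 0.01) for 100% of values worth fewer than 200 reads, and larger values were rounded to the nearest read.

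Groups were taken from the treatment labels and columns from the titles. Genes with at least 1 FPKM in at least 3 of 6 libraries (13441) were fitted as log2(FPKM + 1) by limma 3.58.1 in R 4.3.3, with a group term, eBayes with a trend and Benjamini-Hochberg adjustment over all genes. The procedure was tested on simulated reads in which a small set of genes changed. That simulation held no shift in cell mixture or in scaling, so it does not check them. The 10 genes, all lists and all alternatives were chosen with earlier results of these data known, so counts and medians of lists are descriptions without a test. Named were all 10 genes, the 3 largest rises and falls of each pathway list, preset kinases, partners and relatives, and Atf3, Hspa5 and Xbp1 (Psph was added after its values were seen, Vldlr, Pck2 and Eif2s3x through their promoter letters, and Cdh1 as the exception among its markers). Gcn1 stands as Gcn1l1 in the table. Alternatives were 2 filters, a pseudocount of 0.1, 5 scalings, limma voom on recovered reads, no trend, the adjusted p alone, a replicate block and leaving out each library.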

Additional observations from a re-analysis of the deposited data

How the results depend on the processing

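Against 628 genes called higher and 1514 lower, a pseudocount of 0.1 gave 973 and 1981, limma voom on the recovered reads 1227 and 1862, the adjusted p alone 4424 and 4721, and scaling by Y-linked genes 85 and 5181. Of the 10 genes, 1 (Atf4) was called higher with voom and with the total of recovered reads, 6 were higher and 2 lower at the adjusted p alone, and with scaling by Y-linked genes 2 were called lower while the adjusted p left 0 higher and 8 lower. Beside 6 higher at the adjusted p, 7 were higher with quantile normalisation, with the total of recovered reads and without cisplatin replicate 3 (Sesn2 added), and 8 with voom (Sesn2 and Asns added). Their median log2 fold change of 0.23 became 0.30 with quantile normalisation, 0.31 with the total of recovered reads, 0.34 with voom and -0.70 with scaling by Y-linked genes, and ran from 0.20 to 0.26 when each library was left out. The median over all tested genes moved too, to 0.10 with quantile normalisation, 0.073 with the total of recovered reads and 0.085 with voom. Less that median, Atf4 was at 0.84, 0.93 and 0.92 in these settings (0.92 in the main fit). Sesn2 was at 0.12, 0.17 and 0.17 (0.16) and Asns at 0.0032, 0.066 and 0.059 (0.057). Libraries of the same number are not said to belong together, and their deviations did not correlate (r of -0.10, -0.086 and -0.024). With the replicate block 625 genes were called higher and 1515 lower, and 5 of the 10 genes were higher and 2 lower at the adjusted p, Ddit3 being lost (adjusted p = 0.0723). Without the eBayes trend Ddit3 was lost too (adjusted p = 0.0526).

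Scaling by Y-linked genes reversed Atf4 (-0.074), Ddit3 (-0.85), Ppp1r15a (-0.63), Sesn2 (-0.77), Asns (-0.90), Phgdh (-0.40), Shmt2 (-0.18) and Chac1 (-0.50), and of the other named genes Eif2b1 (-0.28), Oma1 (-0.35), Slc38a2 (-0.032), Mthfd1 (-0.39), Jdp2 (-0.46), Gdf15 (-0.70), Dnajb9 (-0.51), Atf6b (-0.56), Ppp1r15b (-0.57), Atg3 (-0.45), Atg12 (-0.51), Eif2ak1 (-0.82), Eif2ak3 (-0.67), Atf3 (-0.73), Trib1 (-0.79), Sesn3 (-0.60), Eif2s3x (-0.87) and Cdh1 (-0.20). All of these lie above the shift of all genes, -0.83, except Ddit3, Asns and Eif2s3x. The medians of the pathway lists then ran from -1.05 to -0.12. Cebpb changed sign with the total of recovered reads (0.033) and with voom (0.031), Sesn1 with quantile normalisation (0.023), and Psph with quantile normalisation (0.079), the total of recovered reads (0.043) and voom (0.054), running from -0.063 to 0.022 when each library was left out. Eif2s3x did not pass with the replicate block (adjusted p = 0.0854), without the trend (0.0672), with TPM rescaling (0.0522), or without PBS replicate 1 (0.0613), PBS replicate 3 (0.0905), cisplatin replicate 2 (0.0873) or cisplatin replicate 3 (0.0728). Of the 17 kinase and initiation genes 13 rose with quantile normalisation and with the total of recovered reads. Derl3 was called lower with a pseudocount of 0.1 (-1.01). Eif2ak1 passed as a rise with median-of-ratios scaling, quantile normalisation, the total of recovered reads and voom, and without cisplatin replicate 3 (0.12 to 0.21). What caused these differences was not tested. Of the other rises, Mthfd2, Shmt1, Herpud1, Sqstm1 and Gclc no longer passed the test with scaling by Y-linked genes. Among the 10 genes depth was lowest for Chac1, with 110 to 164 reads a library.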

Other observations

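Autophagy genes, many of which ATF4 and CHOP can induce, were split on the deposited scaling. Of 21 tested, 9 rose (42.9%) and 10 fell (47.6%). In each direction 1 was called (0 in either with quantile normalisation), and the median log2 fold change was -0.24. Sqstm1, which encodes the cargo receptor p62 and is also an NRF2 target, rose from 194 ± 7.19 to 394 ± 14.96 FPKM (SD, n = 3 a group, log2 fold change 1.02, adjusted p = 1.79e-06), and no longer passed the test with scaling by Y-linked genes (0.022, adjusted p = 0.808). Without PBS replicate 2 Sqstm1 was under the threshold of 1 (0.986). Atg3 (0.51) and Atg12 (0.44), of the machinery that attaches LC3 to membranes, rose, but turned negative with scaling by Y-linked genes. Wipi1, which marks the forming membrane, fell from 7.95 ± 0.29 to 3.31 ± 0.060 FPKM (SD, n = 3 a group, log2 fold change -1.05, adjusted p = 3.33e-06). With the total of recovered reads Wipi1 was at -0.98 and was not called. The starter kinase Ulk1 fell with -0.81 (adjusted p = 1.44e-05) and Map1lc3a, an LC3 gene, with -0.82 (adjusted p = 0.000359).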
